A study of Homo sapiens with 12 samples.

Results

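The 70 protein-coding genes described here encode the heat shock chaperones of the cytosol and the mitochondria, their J-protein partners, and the heat shock transcription factors HSF1 and HSF2. They were taken by symbol from the 60617 genes of the count table, as all genes of the HSPA and DNAJA to DNAJC series, HSPB1 to HSPB11, HSPD1, HSPE1, HSPH1, HSP90AA1, HSP90AB1, TRAP1, SERPINH1, HSF1 and HSF2. The endoplasmic reticulum chaperones HSPA5, HSPA13, DNAJB9, DNAJB11, DNAJC3 and DNAJC10 were left out by the same rule. The symbols also admit some genes of other kinds, of which only examples are given. SERPINH1 and DNAJC1 encode proteins of the endoplasmic reticulum, and HSPB11, now also called IFT25, encodes a ciliary transport protein. By family there were 13 HSP70 and HSP110 genes, 3 HSP90 genes, the 2 genes of the mitochondrial chaperonin, 8 small heat shock protein genes, SERPINH1, the 2 heat shock factors, and 4 DNAJA, 10 DNAJB and 27 DNAJC genes. Counts were high enough to test 61 of the 70, and the other 9 were DNAJA4, DNAJB7, DNAJB8, DNAJB13, DNAJC5B, DNAJC5G, HSPB2, HSPB3 and HSPB9.

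Chaperones bind unfolded stretches of other proteins and, for the most part, use ATP to help them fold. HSP70 proteins are loaded with clients by J-proteins (the DNAJ genes), HSP90 proteins take over late folding steps, and small heat shock proteins hold unfolded proteins without using ATP. In mitochondria, HSPA9 pulls imported proteins through the inner membrane and the HSPD1-HSPE1 chaperonin folds them in a closed cage. HSF1 is the factor that raises many of these genes on heat or proteotoxic stress. Adrenocortical cells carry out several steps of steroid synthesis inside mitochondria.

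Polyadenylated RNA was sequenced from NCI-H295R, an established human adrenocortical carcinoma cell line, in 12 libraries, with 3 biological replicates in each of 4 groups. Baseline cells received the vehicle DMSO for 96 h. EZH2i cells received 62 µM EPZ-6438, an inhibitor of the histone methyltransferase EZH2, for 96 h, and CBPi cells received 26 µM PRI-724, which blocks the use of the coactivator CBP by β-catenin, for 96 h; the labels call both doses IC50 doses. FSK cells spent 48 h in vehicle before 48 h with 10 µM forskolin, an activator of adenylyl cyclase, a shorter exposure than that to the inhibitors. All results come from 1 cell line at 1 dose and 1 time per agent, and no heat shock was applied in any group.

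Libraries held 20.6 to 31.5 megacounts (counts in units of 1e+06), and the 70 genes took 0.769% to 1.04% of them. All 8 adrenocortical markers examined passed the count filter, among them NR5A1 and STAR, while PTPRC and CD3E (leukocytes), PECAM1 and CDH5 (endothelium) and KRT5 and KRT14 (squamous epithelium) did not. Replicate numbers used here follow the order of the samples, since the labels give none. No replicates were closer to each other than counting noise. CBPi replicate 2 stood farthest from the others of its group: chi-square divided by its degrees of freedom was 14.2 and 13.3 over 13370 genes in its 2 pairs and 2.68 to 7.10 in all other pairs. In bulk RNA, fewer cells of a kind and less RNA per cell cannot be told apart.

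Per kilobase of the gene length deposited by the authors, 5 genes led at baseline. The cytosolic HSP90 gene HSP90AB1 stood at 347 ± 11 CPM (TMM-scaled counts per 1e+06 counts) per kilobase, HSPD1 at 281 ± 3.6, the constitutive HSP70 gene HSPA8 at 268 ± 14, HSP90AA1 at 188 ± 7.8 and the small heat shock protein gene HSPB1 at 149 ± 7.6 (SD, n = 3). The libraries of HSPD1 and HSPA8 overlapped, so their order is not resolved. With FSK the highest level was that of HSPD1, 544 CPM per kilobase against 461 for HSP90AB1. With EZH2i HSPD1 was at 77.9 and with CBPi at 112, below HSP90AB1 (369 and 338) and HSPA8 (253 and 231) in both. At the other end, 12 members were below 1 CPM at baseline, among them the heat-inducible HSPA6, at 0.339 CPM.

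Heat shock elements, to which HSF1 binds, are repeats of the unit NGAAN in alternating orientation. They were searched for as letters in RefSeq promoter windows (GRCh38.p14), from 250 bases before to 50 bases after a gene start, on both strands. Of the 70 genes 62 had a window, 84 windows in all. The genes without one were HSF1, HSPA12B, DNAJC5B, HSPB2, HSPA14, DNAJC1, DNAJC22 and DNAJC24. A 3-unit element (GAA and TTC in turn, starting with either, with 2 bases of any kind between them) was found in 8 windows of 8 genes, 9.52% of the members' windows against 0.490% of all 35116 windows. These stretches of 30 bases are shown because the genes that carry them include the most abundant chaperones. Capitals mark the matched letters.
HSPD1: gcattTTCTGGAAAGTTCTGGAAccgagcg
HSPA8: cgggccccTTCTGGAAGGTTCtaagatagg
HSPA6: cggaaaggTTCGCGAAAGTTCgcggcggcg
HSP90AA1: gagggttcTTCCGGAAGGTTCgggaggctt
HSP90AB1: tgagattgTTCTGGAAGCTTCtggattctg
DNAJA1: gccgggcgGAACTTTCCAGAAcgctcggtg
DNAJB6: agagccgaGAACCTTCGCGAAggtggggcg
SERPINH1: ttccaactTTCCAGAAGTTTCtcgggacgg

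The stretch of HSPD1 lies at chr2:197500061-197500090 on the minus strand and holds overlapping 3-unit matches over 18 bases, the longest run of the set. The others lie at chr11:123062170-123062199 (HSPA8, minus strand), chr1:161524458-161524487 (HSPA6, plus), chr14:102087111-102087140 (HSP90AA1, minus), chr6:44247823-44247852 (HSP90AB1, plus), chr9:33025268-33025297 (DNAJA1, plus), chr7:157336865-157336894 (DNAJB6, plus) and chr11:75562169-75562198 (SERPINH1, plus). That of DNAJA1 begins 3 bases after the start, and the other 7 lie before the start of the window in which they were found. Those of HSPD1, HSP90AA1 and HSP90AB1 lie after other RefSeq starts of the same genes. The shorter 2-unit element, GAANNTTC or TTCNNGAA, of which each 3-unit match holds 2, was found in 24 windows of 23 members, 28.6% of windows against 13.5% of all. Among them were the near-identical stress genes HSPA1A (chr6:31815426-31815455, plus strand) and HSPA1B (chr6:31827622-31827651, plus), shown here because their stretches also nearly coincide.
HSPA1A: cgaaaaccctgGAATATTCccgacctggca
HSPA1B: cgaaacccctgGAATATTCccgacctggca

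The cAMP response element TGACGTCA, searched because forskolin raises cAMP, was found in 4 windows of 3 members, 4.76% of windows against 1.85% of all. Windows of DNAJC27 overlap and hold the same match, which is counted in each. The stretches of TRAP1 (chr16:3717600-3717629, minus strand), HSP90AB1 (chr6:44246959-44246988, plus) and DNAJC27 (chr2:24972114-24972143, minus) were as follows.
TRAP1: ggcgcccgccgTGACGTCAccgccccgcgc
HSP90AB1: ttttcggaccaTGACGTCAaggtgggctgg
DNAJC27: gggcctgcagaTGACGTCAgcagccccgcg

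CCAAT (or ATTGG) was in 34.5% of the members' windows and 34.6% of all windows, and TGATGCAA, an ATF4-type element, in 0 and 0.866%. A match is a description of letters and not evidence of binding.

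The first set of comparisons asked what each agent did to chaperone mRNA relative to vehicle. Differences are log2 fold changes from the quasi-likelihood test of edgeR, with Benjamini-Hochberg adjustment over 20360 genes, and genes are said to have risen or fallen where the adjusted p was under 0.05. With EZH2i, 12 of the 61 tested members rose, 24 fell and 25 did not pass; among all genes tested 29.5% were called higher and 28.3% lower, 57.8% in either direction. With CBPi, 8 rose, 31 fell and 22 did not pass, against 29.8% called higher, 29% lower and 58.9% in either direction among all genes. With FSK, 17 rose, 20 fell and 24 did not pass, against 25.5%, 25.1% and 50.6%. The median difference of the 61 was -0.10 with EZH2i, -0.21 with CBPi and -0.00 with FSK, and that of all genes was 0.02, 0.01 and 0.01.

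Most differences were small. Past 1.5-fold, 2 members were higher and 5 lower with EZH2i (12.7% and 10.1% of all genes), 0 higher and 6 lower with CBPi (12.6% and 11.7%), and 5 higher and 7 lower with FSK (10.2% and 10.6%). The 3 comparisons share the baseline libraries, so the values are given side by side. Genes that passed as lower in each comparison were DNAJA1, DNAJA2, DNAJB14, DNAJC8, DNAJC17, DNAJC25-GNG10, HSF2 and HSPB11, and SERPINH1 and DNAJC1 passed as higher in each. Genes that passed in opposite directions in different comparisons were HSPD1, HSPE1, HSPA9, TRAP1, DNAJA3, HSPA2, HSPA4L, HSPA12A, HSPB7, HSPB8, DNAJC6 and DNAJC14. Of all genes 57.8%, 58.9% and 50.6% were called with EZH2i, CBPi and FSK, and how many show each of these patterns was not counted. The lists are therefore not read as particular to the members.

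**Figure D1:**
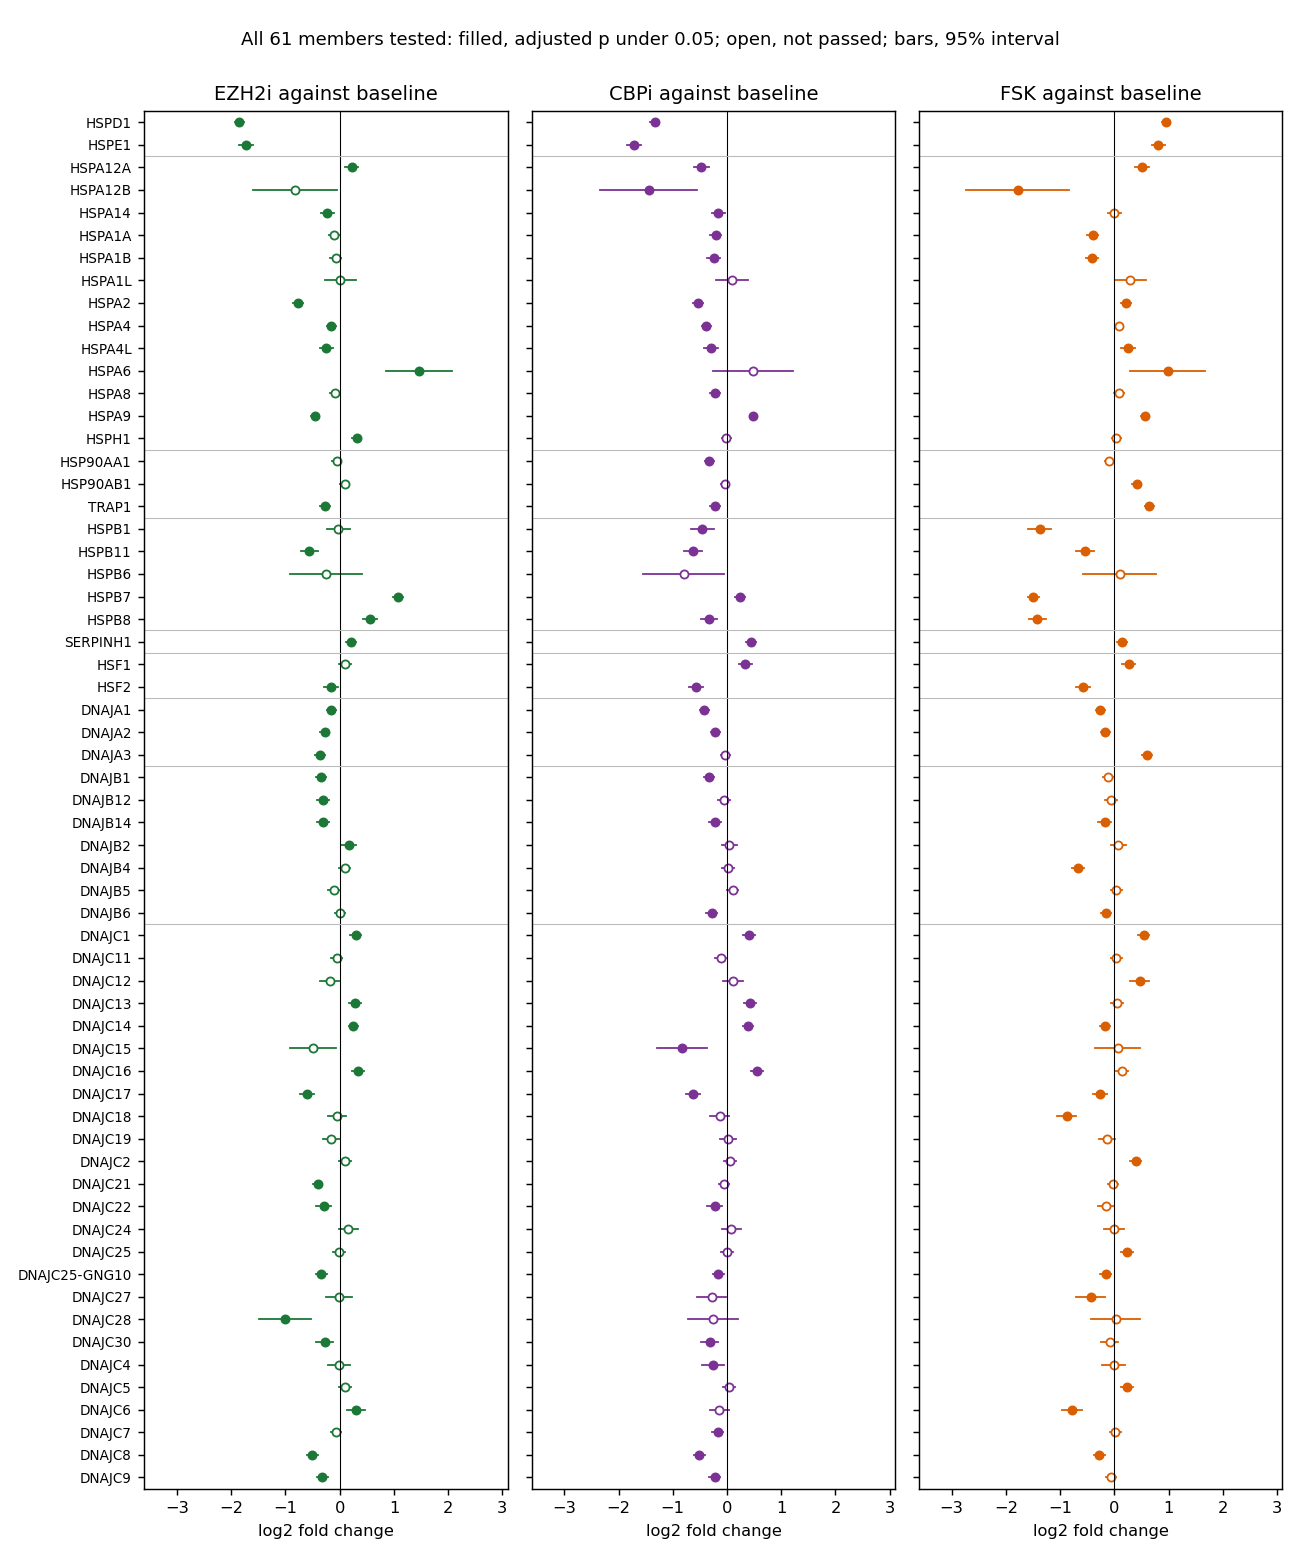
Log2 fold change of each of the 61 tested genes (rows, grouped by family) with EZH2i, CBPi and FSK against baseline; bars are 95% intervals, filled points passed adjusted p 0.05 and open points did not. HSPD1 and HSPE1 at the top lie at -1.85 and -1.72 with EZH2i and at 0.95 and 0.81 with FSK, while most other points lie within 1 log2 unit of 0.

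Among members whose mean log2 CPM reached 1, the mitochondrial chaperonin genes held the largest falls with each inhibitor and the largest rises with FSK. The falls of HSPB7, HSPB8 and HSPB1 with FSK, given below, were larger than these rises. HSPD1, which encodes the HSP60 ring, was at 1143, 1167 and 1169 CPM in the baseline libraries, 312, 319 and 332 with EZH2i, 445, 489 and 450.5 with CBPi, and 2283, 2169 and 2276 with FSK. No library of any group overlapped another group: FSK was highest, then baseline, CBPi and EZH2i. HSPD1 was 3.61-fold lower with EZH2i (-1.85 ± 0.04 SE, adjusted p = 8.63e-18), 2.51-fold lower with CBPi (-1.33 ± 0.04, adjusted p = 8.21e-16) and 1.93-fold higher with FSK (0.95 ± 0.04, adjusted p = 8.38e-14). Of all counts on the 70 genes, HSPD1 alone took 12.6% to 12.9% in baseline libraries, 4.07% to 4.25% in EZH2i, 5.81% to 6.24% in CBPi and 20.8% to 21.0% in FSK libraries. The summed level of the 8 adrenocortical markers moved in the same order between FSK, baseline and the inhibitors, at 4112 to 4349.8 CPM in FSK, 2099 to 2171 in baseline, 651 to 680.5 in EZH2i and 638 to 715 in CBPi libraries; its part in the chaperonin difference was not tested.

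HSPE1, which encodes the HSP10 lid of the same cage, was at 159, 178 and 177 CPM at baseline, 49.5, 52.4 and 54.3 with EZH2i, 48.5, 55.5 and 52.2 with CBPi, and 331, 281 and 291 with FSK. The EZH2i and CBPi libraries lay within one range, far under baseline, and the FSK libraries lay above it. HSPE1 fell by 1.72 ± 0.07 (SE) with EZH2i and by 1.72 ± 0.07 with CBPi, and rose by 0.81 ± 0.06 with FSK. Between the inhibitors HSPE1 did not pass (0.00, 95% interval -0.13 to 0.13, adjusted p = 0.98), while HSPD1 was lower with EZH2i than with CBPi (-0.52 ± 0.04 SE, adjusted p = 3.82e-09). The ratio of HSPE1 to HSPD1 per kilobase was 0.358 to 0.371 in EZH2i libraries and 0.247 to 0.262 in CBPi libraries, against 0.315 to 0.345 in baseline and 0.290 to 0.328 in FSK libraries.

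The chaperonin genes lie head to head on chromosome 2, HSPD1 at chr2:197486581-197516737 on the minus strand and HSPE1 at chr2:197499994-197503457 on the plus strand. The RefSeq starts of HSPD1 lie 105 and 539 bases from that of HSPE1, and the heat shock stretch of HSPD1 printed above lies between the farther of these HSPD1 starts and the RefSeq start of HSPE1, within the wider span that GENCODE gives HSPE1. Exons of the 2 genes overlap over 281 bases on opposite strands, 14.2% of the exonic bases of HSPE1, and the strand setting of the counting is not given in the sources used here. HSPE1 also shares 192 exonic bases with the readthrough gene HSPE1-MOB4, which held more counts than HSPE1 itself (mean 4416 against 3509) and differed from baseline by -1.72, -1.79 and 1.01. With both summed, the values were -1.72, -1.76 and 0.92. The 18 genes named as HSPD1 pseudogenes held 7.84% of the counts of HSPD1 and these pseudogenes together, and HSPD1 summed with them differed by -1.85, -1.33 and 0.95.

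Other mitochondrial chaperones differed less and did not all follow the chaperonin. HSPA9, the HSP70 of the matrix, was at 492, 508 and 504 CPM at baseline, 371, 363 and 358 with EZH2i, 708, 704 and 697 with CBPi, and 739.8, 726 and 750.1 with FSK. It was below baseline in every EZH2i library and above baseline in every CBPi and FSK library. HSPA9 fell by 0.46 ± 0.03 (SE) with EZH2i and rose by 0.49 ± 0.03 with CBPi and by 0.56 ± 0.03 with FSK. Between the inhibitors it was 1.93-fold lower with EZH2i (adjusted p = 5.19e-14).

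TRAP1, the HSP90 of mitochondria, was at 118, 122 and 126 CPM at baseline, 99.1, 105 and 98.7 with EZH2i, 108, 100.1 and 107 with CBPi, and 194, 188 and 192 with FSK. It fell by 0.27 ± 0.04 (SE) and 0.22 ± 0.04 with the inhibitors and rose by 0.65 ± 0.04 with FSK. Its exons overlap the opposite-strand gene DNASE1 over 29.3% of their bases, with a mean count of 575 on DNASE1 against 3269 on TRAP1. DNAJA3, the J-protein that serves HSPA9, was at 138, 141 and 148 CPM at baseline, 109, 111 and 114 with EZH2i, 144, 131 and 144 with CBPi, and 219, 209 and 218 with FSK. It fell by 0.36 ± 0.05 with EZH2i, rose by 0.60 ± 0.05 with FSK, and did not pass with CBPi (-0.03, 95% interval -0.12 to 0.06).

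**Figure D2:**
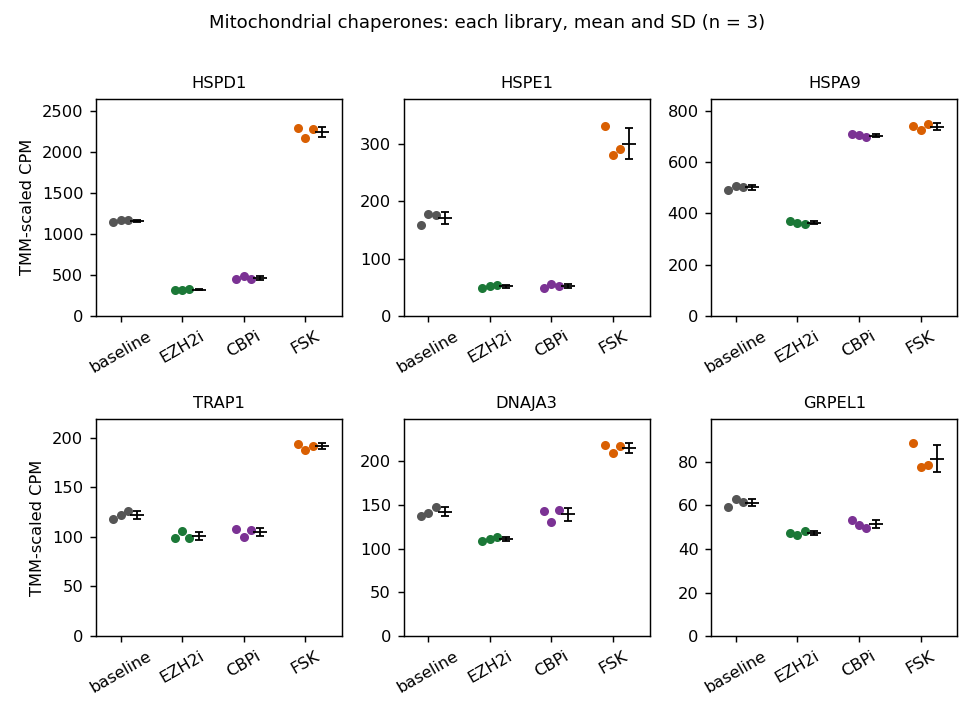
TMM-scaled CPM (vertical axes, from 0) of 6 mitochondrial chaperone genes and partners in the 4 groups (horizontal axes); coloured points are libraries and black marks the mean and SD of 3. HSPD1, HSPE1, TRAP1, DNAJA3 and the exchange factor GRPEL1 are highest with FSK, while the CBPi libraries of HSPA9 (697 to 708) lie near those of FSK (726 to 750.1).

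Of 11 members whose proteins act in mitochondria, 0 rose and 7 fell with EZH2i, 1 rose (HSPA9) and 6 fell with CBPi, and 5 rose and 0 fell with FSK. Among all genes the shares called were 29.5% higher and 28.3% lower with EZH2i, 29.8% and 29% with CBPi and 25.5% and 25.1% with FSK. The median differences of the 11 were -0.36, -0.26 and 0.07; with libraries scaled by totals alone the FSK values were 5 higher, 1 lower and a median of -0.00. The 5 that rose with FSK were HSPD1, HSPE1, HSPA9, TRAP1 and DNAJA3. The import J-proteins DNAJC15 and DNAJC19, and DNAJC11, did not pass with FSK (0.07, -0.13 and 0.04). DNAJC28, at 1.12 CPM at baseline, fell by 1.01 ± 0.25 (SE) with EZH2i and did not pass with CBPi (-0.26) or FSK (0.02). It was also lower with EZH2i than with CBPi (-0.75, adjusted p = 0.0219, lost in 5 of 19 alternative analyses) and than with FSK (-1.03, adjusted p = 0.00115). DNAJC15 fell by 0.83 ± 0.24 with CBPi, from 1.09 to 0.619 CPM.

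Genes of the mitochondrial genome took 2.37% to 3.22% of counts in baseline libraries, 3.27% to 4.40% in EZH2i, 3.58% to 4.81% in CBPi and 2.64% to 3.22% in FSK libraries. Their share was above baseline in every library of both inhibitors, and the FSK range overlapped that of baseline. The EZH2i libraries were also the deepest, with 29.5 to 31.5 megacounts. The part of either in the chaperone differences was not tested.

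Among the HSP70 genes of the cytosol, HSPA8, HSPA1A and HSPA1B differed from baseline by less than 1.5-fold with each agent. HSPA8 was at 1223, 1323 and 1355 CPM at baseline, 1173, 1249.9 and 1251 with EZH2i, 1045, 1184 and 1127 with CBPi, and 1413, 1340.0 and 1404 with FSK. Only the CBPi libraries lay wholly apart from baseline, and HSPA8 fell by 0.22 ± 0.05 (SE) there. It did not pass with EZH2i (-0.09, 95% interval -0.18 to 0.01) or with FSK (0.09, adjusted p = 0.119).

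HSPA1A and HSPA1B encode the same stress-inducible protein and lie 1 after the other on chromosome 6 (chr6:31815464-31817946 and chr6:31827735-31830255). HSPA1A was at 177, 178 and 166 CPM at baseline, 164, 161 and 161 with EZH2i, 156, 137 and 158 with CBPi, and 127, 133 and 136 with FSK. HSPA1B was at 241, 245 and 224 CPM at baseline, 224, 222 and 226 with EZH2i, 210.0, 177 and 211 with CBPi, and 173, 173 and 185 with FSK. Both had their lowest means with FSK, though the lowest CBPi library of HSPA1B overlapped the FSK range. They fell with FSK by 0.40 ± 0.05 and 0.42 ± 0.06 (SE), and also fell with CBPi, by 0.21 ± 0.05 and 0.25 ± 0.06. Neither passed with EZH2i. Reads of such near-identical genes can be split between them by the counting, and 36.5% of the exonic bases of HSPA1B also lie in another annotated transcript. Summed into 1 feature they gave -0.09 (not passed), -0.23 and -0.41.

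HSPA2, an HSP70 best known from testis, was at 152, 148 and 157 CPM at baseline, 90.7, 90.4 and 87.5 with EZH2i, 108, 98.4 and 109 with CBPi, and 178, 172 and 183 with FSK. Its groups did not overlap, and it fell by 0.77 ± 0.05 (SE) with EZH2i and 0.54 ± 0.05 with CBPi and rose by 0.22 ± 0.04 with FSK. The HSP110 exchange factors, which release ADP from HSP70, did not move as a set. HSPA4 fell with EZH2i (-0.15 ± 0.04 SE) and with CBPi (-0.38 ± 0.04), from 271 to 244 and 209 CPM. HSPA4L fell with both inhibitors (-0.24 and -0.30) and rose with FSK (0.25). HSPH1 rose with EZH2i, from 104 ± 2.5 to 129 ± 3.4 CPM (0.32 ± 0.04 SE), did not pass with CBPi (-0.01) or FSK (0.03), and was also higher with EZH2i than with CBPi (0.33, adjusted p = 2.05e-06) and than with FSK (0.28, adjusted p = 5.26e-06).

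HSPA12A, a distant relative of HSP70, rose with EZH2i (0.22 ± 0.06 SE) and with FSK (0.52 ± 0.06) and fell with CBPi (-0.47 ± 0.07), from 19.1, 19.4 and 19.9 CPM at baseline to 23.4, 22.0 and 22.5 with EZH2i, 27.3, 26.8 and 29.5 with FSK, and 12.9, 14.7 and 14.3 with CBPi. No groups overlapped. HSPA6, which is silent in most unstressed cells, was at 0.274, 0.368 and 0.376 CPM at baseline and 0.865, 0.927 and 1.06 with EZH2i. These are few counts, and all were near or under 1 CPM. HSPA6 rose by 1.46 ± 0.31 (SE) with EZH2i and 0.98 ± 0.35 with FSK, did not pass with CBPi (0.48 ± 0.37), and was higher with EZH2i than with CBPi (0.98, adjusted p = 0.00884).

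The 2 cytosolic HSP90 genes differed from each other. HSP90AA1, the more stress-responsive, was at 958, 969 and 1034 CPM at baseline, 936, 974 and 935 with EZH2i, 764, 829 and 767 with CBPi, and 920.1, 893 and 968 with FSK. It fell with CBPi (-0.33 ± 0.04 SE) and did not pass with EZH2i (-0.06, 95% interval -0.14 to 0.03) or FSK (-0.09, adjusted p = 0.0888). HSP90AB1 was at 997, 1058 and 1047 CPM at baseline, 1109.6, 1096 and 1097 with EZH2i, 971, 1071 and 976 with CBPi, and 1397, 1374 and 1352 with FSK. Its FSK libraries lay above all others, and it rose by 0.41 ± 0.04 with FSK. It did not pass with EZH2i (0.09, adjusted p = 0.064) or CBPi (-0.04, 95% interval -0.12 to 0.04).

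**Figure D3:**
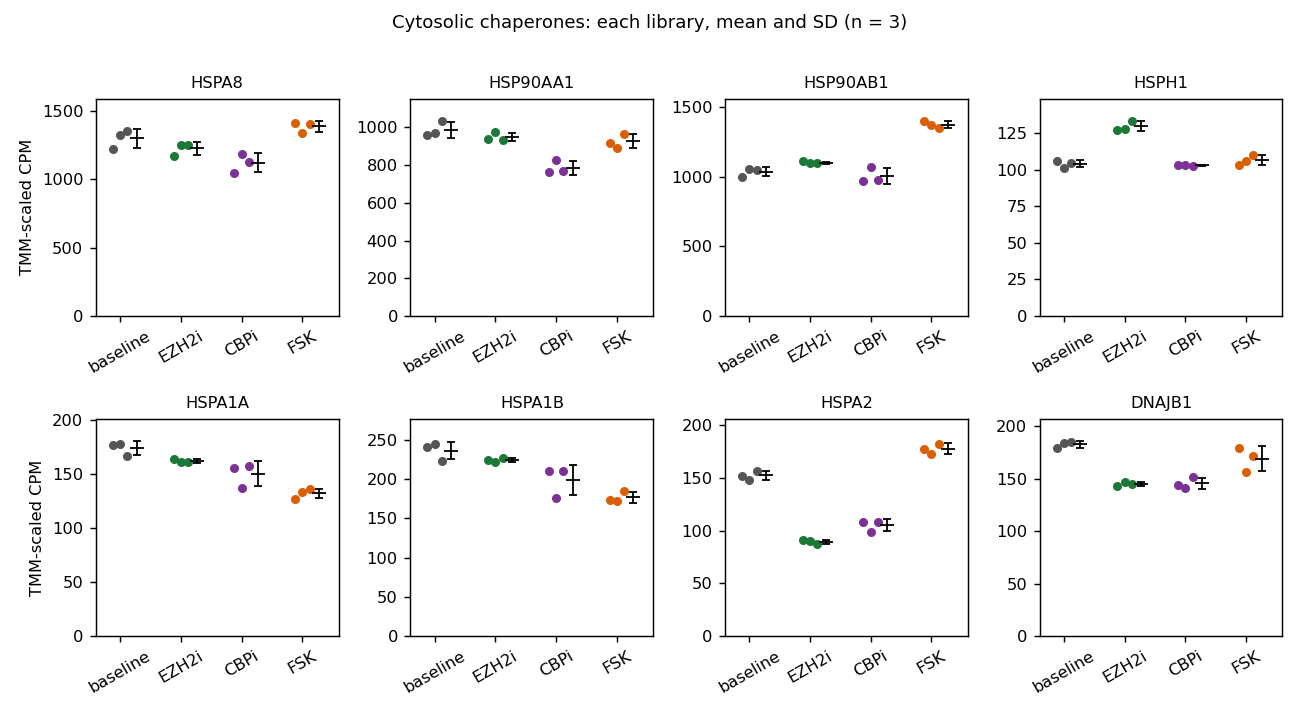
TMM-scaled CPM (vertical axes, from 0) of 8 cytosolic chaperone genes in the 4 groups; points are libraries and black marks the mean and SD of 3. HSPA8 and HSP90AA1 stay within 1045 to 1413 and 764 to 1034 CPM over all libraries, HSP90AB1 is highest with FSK, and HSPA1A and HSPA1B have their lowest means with FSK.

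Small heat shock protein genes held the largest falls with FSK other than that of HSPA12B, which was below 1 CPM. Of the 8, 5 were tested, and 4 of these fell with FSK and 0 rose, with a median difference of -1.38. Of all genes 25.1% were called lower with FSK and 25.5% higher. The 4 include HSPB11, which encodes a ciliary transport protein and fell with each agent. HSPB7, a small heat shock protein best known from heart and muscle, was at 72.6, 71.8 and 69.7 CPM at baseline, 146, 149.7 and 155 with EZH2i, 84.1, 79.4 and 89.1 with CBPi, and 25.1, 25.5 and 25.6 with FSK. The 4 groups did not overlap, with EZH2i highest and FSK lowest. HSPB7 rose by 1.07 ± 0.05 (SE) with EZH2i (adjusted p = 1.6e-13) and by 0.24 ± 0.05 with CBPi, and fell by 1.49 ± 0.05 with FSK (adjusted p = 3.77e-15). Between EZH2i and FSK it differed 5.91-fold.

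HSPB8, which works with the cochaperone BAG3 in the autophagy of misfolded proteins, was at 27.1, 28.3 and 28.8 CPM at baseline, 41.0, 42.4 and 41.2 with EZH2i, 20.8, 23.4 and 22.5 with CBPi, and 12.1, 9.35 and 9.95 with FSK. Again no groups overlapped. HSPB8 rose by 0.56 ± 0.07 (SE) with EZH2i and fell by 0.33 ± 0.07 with CBPi and 1.42 ± 0.08 with FSK. BAG3 itself rose with EZH2i (0.26) and fell with CBPi (-0.30) and FSK (-0.34), from 51.8 CPM to 62.0, 42.3 and 40.8; it was set beside HSPB8 after its values were seen.

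HSPB1, or HSP27, the most abundant small heat shock protein gene here, was at 213, 225 and 236 CPM at baseline, 205, 226 and 232 with EZH2i, 169, 133 and 191 with CBPi, and 84.6, 82.4 and 92.6 with FSK. It fell 2.60-fold with FSK (-1.38 ± 0.11 SE, adjusted p = 6.42e-07) and by 0.45 ± 0.11 with CBPi, and did not pass with EZH2i (-0.02, 95% interval -0.23 to 0.18). CBPi replicate 2, the library that stands apart, was lowest within its group for HSPB1, HSPA1A and HSPA1B. Without it the CBPi differences of these genes were -0.33, -0.16 and -0.18, and all still passed. HSPB11 fell in all 3 comparisons, by 0.56, 0.63 and 0.55, from 24.8 to 16.8, 16.0 and 17.0 CPM. HSPB6 was near 1 CPM and did not pass in any comparison with baseline.

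**Figure D4:**
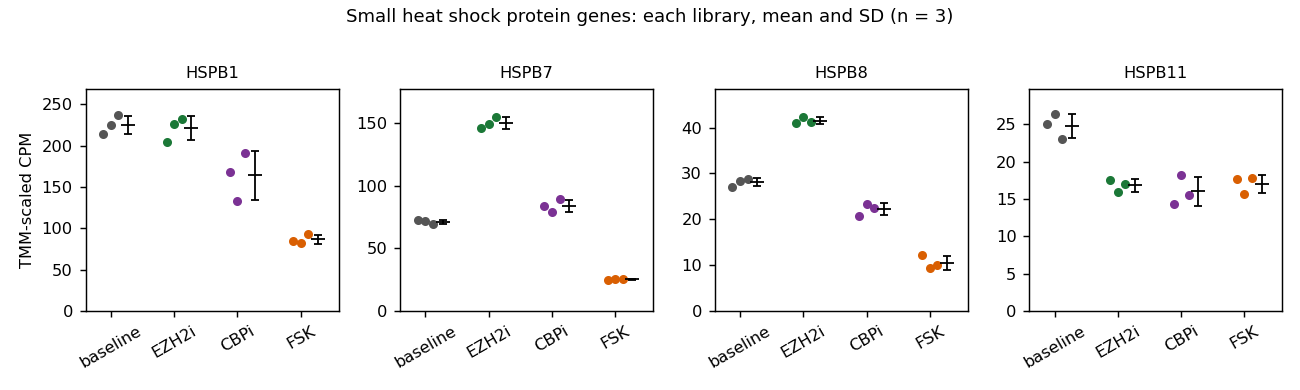
TMM-scaled CPM (vertical axes, from 0) of 4 small heat shock protein genes in the 4 groups; points are libraries and black marks the mean and SD of 3. HSPB7 and HSPB8 are highest with EZH2i and lowest with FSK, HSPB1 is lowest with FSK (82.4 to 92.6 CPM), and HSPB11 is below baseline in the 3 treated groups.

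J-proteins had mostly modest differences. Of the 3 tested DNAJA genes, 3 fell with EZH2i, 2 fell with CBPi, and 1 rose and 2 fell with FSK. Among all genes the shares called higher and lower were 29.5% and 28.3% with EZH2i, 29.8% and 29% with CBPi, and 25.5% and 25.1% with FSK. DNAJA1, the main cytosolic partner of HSPA8 in its class, was at 291, 287 and 302 CPM at baseline, 257, 266 and 269 with EZH2i, 216, 220.0 and 221 with CBPi, and 255, 229.5 and 253 with FSK. Every treated library lay under baseline, and DNAJA1 fell by 0.15, 0.42 and 0.26 (SE 0.04 each). DNAJA2 fell by 0.27, 0.21 and 0.17.

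DNAJB1, the stress-inducible partner of HSP70, was at 179, 184 and 185 CPM at baseline, 143, 146 and 145 with EZH2i, 144, 141 and 152 with CBPi, and 179, 157 and 172 with FSK. It fell by 0.34 ± 0.05 (SE) and 0.33 ± 0.05 with the inhibitors and did not pass with FSK (-0.11, adjusted p = 0.0534), though it passed as lower there in 7 of 19 alternative analyses, DESeq2 and RLE scaling among them. DNAJB4 fell with FSK, from 35.7 ± 1.4 to 22.5 ± 0.33 CPM (-0.66 ± 0.06 SE), and did not pass with either inhibitor. DNAJB6, which keeps aggregation-prone proteins soluble, fell with CBPi (-0.29 ± 0.05) and FSK (-0.16 ± 0.05), from 66.8 to 54.8 and 59.9 CPM. Its FSK call was lost without FSK replicate 2 (adjusted p = 0.0666).

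Of 25 tested DNAJC genes, which have specialised roles, 5 rose and 8 fell with EZH2i, 4 rose and 9 fell with CBPi, and 5 rose and 7 fell with FSK. These are 20% and 32%, 16% and 36%, and 20% and 28% of the 25, beside 29.5% and 28.3%, 29.8% and 29%, and 25.5% and 25.1% of all genes. DNAJC16 rose with the inhibitors (0.34 ± 0.06 and 0.55 ± 0.06 SE), from 31.7 CPM to 40.1 and 46.5. DNAJC13, which acts at endosomes, rose with both too (0.29 and 0.43). DNAJC1 rose in all 3 comparisons, by 0.29, 0.41 and 0.54. DNAJC6, or auxilin, which helps HSPA8 strip clathrin from vesicles, was at 21.3, 19.4 and 18.2 CPM at baseline, 25.1, 24.2 and 23.6 with EZH2i, 19.4, 18.3 and 15.9 with CBPi, and 9.86, 11.9 and 12.6 with FSK. The EZH2i libraries were highest and the FSK libraries lowest, and CBPi overlapped baseline. It rose by 0.31 ± 0.08 with EZH2i and fell by 0.78 ± 0.09 with FSK.

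DNAJC18 fell with FSK, from 13.7 ± 0.92 to 7.46 ± 0.70 CPM (-0.88 ± 0.09 SE). DNAJC17 fell by 0.60, 0.63 and 0.26, and DNAJC8, which is linked to splicing, by 0.50, 0.51 and 0.27. DNAJC14 rose with EZH2i (0.25) and CBPi (0.38) and fell with FSK (-0.17). Exons of other genes overlap those of DNAJC14 and DNAJC17 (23.2% by the widest overlap of DNAJC14 and 20.4% by that of DNAJC17), so their counts are less certain. The readthrough gene DNAJC25-GNG10, admitted by its symbol, shares 75.3% of its exonic bases with GNG10 and only 24.7% with DNAJC25.

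The heat shock factors differed in direction. HSF1, whose activity is mainly set after translation, was at 46.6, 49.6 and 47.0 CPM at baseline, 49.1, 51.6 and 53.2 with EZH2i, 64.3, 54.8 and 62.4 with CBPi, and 55.3, 59.6 and 57.6 with FSK. It rose with CBPi (0.34 ± 0.06 SE) and FSK (0.27 ± 0.06) and did not pass with EZH2i (0.10, adjusted p = 0.148). HSF2 fell with CBPi and with FSK by 0.57 ± 0.07 each, from 36.5 ± 0.88 to 24.7 ± 2.8 and 24.5 ± 0.51 CPM. With EZH2i HSF2 fell by 0.16 (adjusted p = 0.0447), a call lost in 8 of 19 alternative analyses.

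Of the 8 genes with a 3-unit heat shock element, 2 rose and 2 fell with EZH2i, 1 rose and 5 fell with CBPi, and 4 rose and 2 fell with FSK, beside 29.5% and 28.3%, 29.8% and 29%, and 25.5% and 25.1% of all genes. Their median differences were -0.02, -0.25 and 0.12. The part of the element in these differences was not tested. SERPINH1, the collagen chaperone, rose in all 3 comparisons: it was at 317, 329 and 339 CPM at baseline, 363, 388 and 383 with EZH2i, 464, 415 and 457 with CBPi, and 356, 354 and 376 with FSK. Its differences were 0.20, 0.44 and 0.14, and that with FSK was lost in 3 alternatives, among them scaling by library totals, and in those without baseline replicate 1 and without FSK replicate 3. Of 8 fibroblast markers, which include collagens, 6 passed the count filter, and their sum was 39.2 to 41.5 CPM in baseline, 42.3 to 49.0 in EZH2i, 15.0 to 18.9 in CBPi and 17.5 to 19.1 in FSK libraries. The sum joins genes that moved in opposite directions: with EZH2i THY1 rose (1.60) while COL1A2 (-1.03), COL3A1 (-0.52) and DCN (-1.48) fell, and with FSK LUM (6.60) and DCN (1.24) rose while COL1A1 (-1.33), COL1A2 (-2.42), COL3A1 (-2.17) and THY1 (-1.79) fell. LUM passed the count filter only through its FSK libraries (133, 99 and 95 counts). It held 0 to 3 counts in each other library, so the size of its rise is set by a near-zero baseline. DCN and COL1A2 were also low, at 0.715 and 1.46 CPM at baseline. With CBPi 5 fell and LUM did not pass. The part of these markers in the SERPINH1 difference was not tested. Of the 3 genes with a cAMP response element, TRAP1 (0.65) and HSP90AB1 (0.41) rose with FSK and DNAJC27 fell (-0.43). That of HSP90AB1 lies in a different window from its 3-unit heat shock element. Whether the cAMP response element had a part in these differences was not tested.

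The agents were also compared with each other. Between EZH2i and CBPi, 15 members were higher and 16 lower with EZH2i, against 21.7% and 22.2% of all genes (43.9% in either direction). The largest differences were HSPA6 (0.98), HSPB8 (0.90), HSPB7 (0.83), HSPA12A (0.69) and DNAJC6 (0.45) on the higher side, and HSPA9 (-0.95), DNAJC28 (-0.75), HSPD1 (-0.52), DNAJC21 (-0.35) and DNAJA3 (-0.33) on the lower side. HSPA6 and DNAJC28 are genes of about 1 CPM or less. Between EZH2i and FSK, 16 were higher and 31 lower with EZH2i, against 30.3% and 31.3% of all genes (61.6% in either direction). HSPB7 (2.56), HSPB8 (1.98), HSPB1 (1.35), DNAJC6 (1.09) and DNAJC18 (0.83) led the one side and HSPD1 (-2.80), HSPE1 (-2.53), DNAJC28 (-1.03), HSPA9 (-1.02) and HSPA2 (-0.99) the other. Between CBPi and FSK, 12 were higher and 28 lower with CBPi, against 29.3% and 29.5% (58.8% in either direction). Here HSPB7 (1.73), HSPB8 (1.09), HSPB1 (0.93), DNAJC18 (0.74) and DNAJB4 (0.68) led those higher with CBPi, and HSPE1 (-2.53), HSPD1 (-2.28), HSPA12A (-0.99), HSPB6 (-0.90) and DNAJC15 (-0.89) those lower. The call of HSPB6 was lost in 12 of 19 alternative analyses. With libraries scaled by their totals alone, the counts were 20 higher and 21 lower for EZH2i against FSK, and 15 and 21 for CBPi against FSK. All genes moved too, by a median of 0.09 and 0.06 under that scaling. Over the alternatives that kept every library, 5787 to 7490 of all genes were higher and 5176 to 6515 lower for EZH2i against FSK. For CBPi against FSK these ranges were 5382 to 6881 and 5170 to 6074.

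Genes that work with these chaperones were described from lists chosen by function. Among 13 genes of mitochondrial import, nucleotide exchange and proteolysis, 0 rose and 11 fell with EZH2i, 3 rose and 7 fell with CBPi, and 6 rose and 0 fell with FSK. The shares of all genes called higher and lower were 29.5% and 28.3% for EZH2i, 29.8% and 29% for CBPi, and 25.5% and 25.1% for FSK. The medians were -0.29, -0.15 and 0.19, against 0.02, 0.01 and 0.01 over all genes. GRPEL1, the exchange factor of HSPA9, was at 59.5, 62.9 and 61.4 CPM at baseline, 47.1, 46.5 and 48.3 with EZH2i, 53.4, 51.2 and 49.9 with CBPi, and 88.7, 77.5 and 78.5 with FSK; it differed by -0.37, -0.25 and 0.41, and was chosen for the text and plot after its values were seen. The matrix protease LONP1 fell with EZH2i (-0.22) and rose with CBPi (0.54) and FSK (0.48), from 261 to 224, 379.7 and 363 CPM, the same directions as HSPA9. CLPB, a mitochondrial disaggregase, fell with EZH2i (-0.66) and CBPi (-0.18) and rose with FSK (0.19). HSCB, a J-protein of iron-sulfur cluster assembly, fell by 0.67 with EZH2i, and GRPEL2 rose by 0.48 with FSK.

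The cytosolic chaperonin TRiC, which folds actin and tubulin, fell in 7 of its 8 subunit genes with each inhibitor and rose in 3 with FSK, with medians of -0.24, -0.36 and 0.05 (-0.02 with FSK where libraries were scaled by totals alone). CCT7 fell by 0.47 and 0.57 with the inhibitors, from 439 to 317 and 295 CPM. With libraries scaled by totals or by RLE, in DESeq2 and without a count filter, 1 subunit rather than 3 passed as higher with FSK, and that of CCT2 (0.12) was lost in 10 of 19 alternatives. Of the 6 prefoldin genes, which hand clients to TRiC, 5 fell with EZH2i and 4 with CBPi, and 1 rose and 1 fell with FSK. Of all genes, 28.3% were called lower with EZH2i and 29% with CBPi, and 25.5% higher and 25.1% lower with FSK. PFDN5 fell from 184 ± 15 to 99.3 ± 6.3 CPM with EZH2i (-0.89 ± 0.09 SE).

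Among 20 cochaperones of HSP70 and HSP90, 5 rose and 9 fell with EZH2i, 3 rose and 10 fell with CBPi, and 7 rose and 7 fell with FSK, or 25% and 45%, 15% and 50%, and 35% and 35% of the 20. All genes were called at 29.5% and 28.3%, 29.8% and 29%, and 25.5% and 25.1%. STIP1, which links HSP70 to HSP90, fell by 0.43, 0.65 and 0.16, from 397 to 296, 253 and 355 CPM. CACYBP fell likewise, by 0.42, 0.64 and 0.25. BAG1, an exchange factor of HSP70, fell with EZH2i (-0.50) and rose with CBPi (0.39) and FSK (0.56). TOMM34 rose in all 3 comparisons (0.50, 0.16 and 0.64).

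A list of 12 endoplasmic reticulum chaperones held the 6 genes named at the start as left out, and HSP90B1, HYOU1, CALR, CANX, PDIA4 and SDF2L1. All 12 rose with EZH2i, 11 rose and 0 fell with CBPi, and all 12 rose with FSK, with medians of 0.60, 0.64 and 0.52. Among all genes 29.5%, 29.8% and 25.5% were called higher. HSPA5, or BiP, the HSP70 of that compartment, was at 839.8, 854 and 886 CPM at baseline, 1782, 1792 and 1722 with EZH2i, 1938, 1808 and 1859.6 with CBPi, and 1653, 1648 and 1689 with FSK. It rose by 1.04, 1.12 and 0.95 (SE 0.04 each), and HYOU1 rose by 1.03, 1.20 and 0.62. SDF2L1 rose with EZH2i (0.66) and FSK (0.78) and did not pass with CBPi (0.05), where its libraries ranged from 71.2 in replicate 2 to 109.9 CPM.

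**Figure D5:**
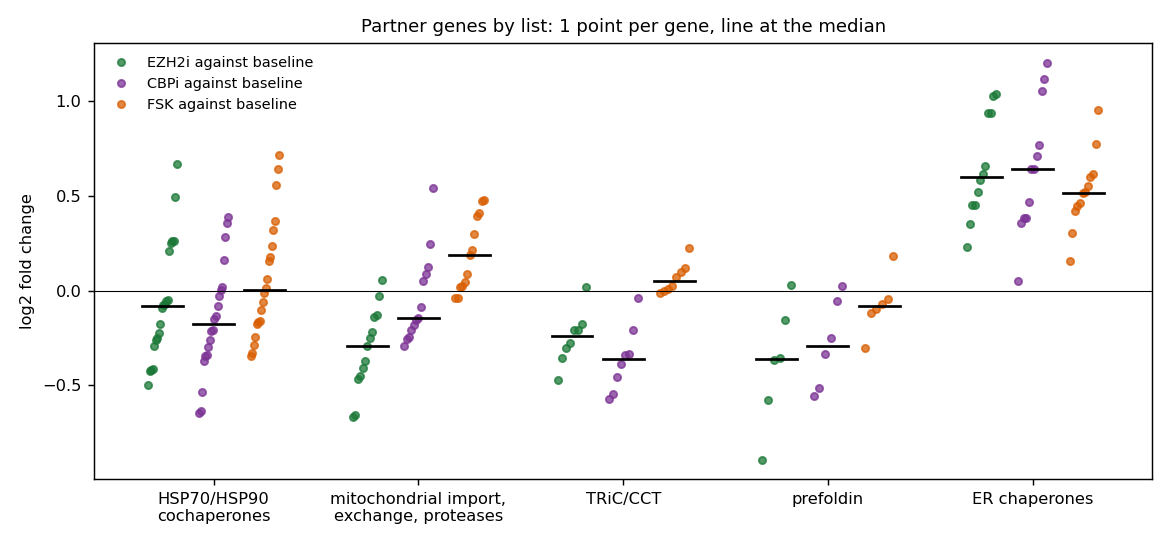
Log2 fold change against baseline (vertical axis) of each partner gene by list (horizontal axis), coloured by agent, with a line at the median. The 12 endoplasmic reticulum chaperones lie above 0 in all 3 comparisons, with medians of 0.60, 0.64 and 0.52, while TRiC and prefoldin lie mostly below 0 with EZH2i and CBPi.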

How the data were processed

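Per the submitters' processing notes, reads were aligned with STAR to hg38 and counted with featureCounts. Which annotation, strand mode and multimapping rule they counted with is not given in the sources used here. Estimated counts were deposited by the authors (expected counts): 65.6% of non-zero values were whole within 1e-06, and all were rounded. The gene length column deposited by the authors was used only for levels per kilobase. Members were identified with GENCODE 29, which also gave gene positions. An entry named HSPA14 there but MSANTD7 now was left out.

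Counts were analysed in R 4.3.3 with edgeR 4.0.16: filterByExpr with the 4 groups left 20360 genes, TMM (a trimmed mean of M values) scaled the libraries, and 1 robust quasi-likelihood model was fitted to all 12 libraries. The 6 pairs of groups were tested, with Benjamini-Hochberg adjustment over all genes tested and a threshold of 0.05. CPM are TMM-scaled, with the SD of 3 libraries. The SE is the log2 fold change divided by the square root of F, and 95% intervals are 1.96 SE either side. Since all cultures are of 1 cell line, p-values reflect only how its replicates vary. The pipeline was tested on simulated data.

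Genes named are a fixed set of 21 members, the 6 largest rises and falls per comparison with baseline among genes whose mean log2 CPM reached 1, members that passed in opposite directions, the 5 largest differences each way between agents, genes that failed the filter, and up to 2 genes per partner list; other names were chosen after their values were seen. The members, lists and tests were chosen with earlier results of these data known. Alternatives were DESeq2 1.42.0, limma 3.58.1 (voom), RLE scaling, library totals only, other filters, fits of 2 groups, each library left out, and HSPA1A and HSPA1B summed. Counts past 1.5-fold and sums of HSPE1 with HSPE1-MOB4 and of HSPD1 with its pseudogenes were added after seeing the data. Protein sequences were not used here.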

Additional observations from a re-analysis of the deposited data

How the results depend on the processing

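Among the differences of named genes, none that passed changed direction under any alternative run; other genes were not examined for this. Of these 200 differences, 173 passed the threshold, and 171 kept their side of it in every alternative run; 16 calls were lost in at least 1, and 13 differences that had not passed did so in at least 1. Leaving out 1 library at a time gave 11 to 13 members higher and 23 to 27 lower with EZH2i, 8 to 9 and 29 to 31 with CBPi, and 15 to 18 and 18 to 23 with FSK, all against baseline. The other alternatives gave 11 to 13 and 23 to 31, 8 and 30 to 31, and 16 to 18 and 20 to 26. Without CBPi replicate 2 the counts were 13 and 26, 8 and 31, and 17 and 23. Scaling by library totals alone turned the split of all genes with FSK from 5197 higher and 5102 lower to 4119 and 6257, with a median shift of -0.07, and called 16 members higher and 26 lower. Calls lost most often were those of HSPB6 between CBPi and FSK (12 of 19), CCT2 with FSK (10 of 19), DNAJB6 between CBPi and FSK (8 of 19), HSF2 with EZH2i (8 of 19) and HSCB with CBPi (7 of 19). The difference of HSPA8 between the inhibitors was lost in 4 and that of HSPA1B between CBPi and FSK in 4. Differences that had not passed and did so in alternatives were, against baseline, those of DNAJB1 (7 of 19), HSP90AA1 (3 of 19) and HSPA4 (2 of 19) with FSK, HSP90AB1 (4 of 19), HSPA1A (3 of 20), HSPA8 (2 of 19) and HSPA1B (1 of 20) with EZH2i, and HSP90AB1 with CBPi (1 of 19); 5 differences between agents did so too. The cause of these losses and gains was not tested. No paired analysis was possible because the labels give no replicate numbers. Groups of 3 limit the precision, and genes under 1 CPM, such as HSPA6 and HSPA12B, have wide intervals.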

Other observations

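CRYAB, the small heat shock protein αB-crystallin, carries another symbol and is not among the 70 genes. It was at 2.01, 2.36 and 0.847 CPM at baseline and 0.781, 0.662 and 0.403 with FSK, and fell by 1.51 (quasi-likelihood test of edgeR, Benjamini-Hochberg adjusted p = 0.0017). It did not pass with EZH2i (-0.07) or CBPi (0.02). It was looked at after the values of the other small heat shock protein genes were known.

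The ratio of HSPA1A to HSPA1B counts stayed within 0.710 to 0.775 over the 12 libraries. The ratio of HSP90AA1 to HSP90AB1 per kilobase was 0.520 to 0.561 in baseline, 0.479 to 0.504 in EZH2i, 0.440 to 0.447 in CBPi and 0.369 to 0.406 in FSK libraries, with no overlap between groups. With 3 libraries a group, no test was made of these ratios.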
